A study of Mus musculus with 8 samples.

Results

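Genes of the Wnt pathway were followed in mouse spermatogonia that had lost the histone demethylase KDM1A. The libraries were 4 KDM1A KO and 4 Control, all from C57BL/6 mice at 6 days after birth that carried the GOF/deltaPE-Oct4/GFP transgene, in which regulatory sequences of Oct4 drive GFP in early germ cells. Oct4-GFP positive cells were sorted by fluorescence after the testes had been digested with enzymes. The labels call the deletion conditional, and neither the Cre driver nor the exons removed are stated in what was used here. Members were the genes whose symbols name Wnt ligands and Porcn, their receptors, the intracellular transducers or the inhibitors, with a mean of at least 0.5 FPKM (fragments per kilobase of transcript, relative to library size, as the authors deposited them) over the 8 libraries. Of 17589 genes in the table, 52 matched these names and 38 passed the floor: 7 ligand genes, 13 receptors, 8 transducers and 10 inhibitors.

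Wnt proteins are lipid-modified by PORCN and secreted, and they bind Frizzled receptors together with LRP5 or LRP6. Dishevelled (DVL) proteins then hold back a destruction complex of AXIN, APC and GSK3, so that beta-catenin accumulates and acts on TCF/LEF transcription factors. R-spondins bind LGR receptors and keep the ligases ZNRF3 and RNF43 from removing Frizzled from the cell surface, while SFRP and DKK proteins block ligands or receptors outside the cell. In the mouse testis, WNT5A and WNT6 are known as signals from Sertoli cells to spermatogonia, and beta-catenin signalling has been tied to the balance between stem cells and progenitors.

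The targeted gene was low in every KDM1A KO library. Kdm1a was at 14.2, 14.1, 17.3 and 14.9 FPKM in KDM1A KO replicates 1 to 4, against 53.7, 54.0, 92.0 and 48.1 FPKM in Control replicates 1 to 4, and the groups did not overlap (log2 change -1.92, SE 0.18, limma adjusted p = 7e-05). Depth was read from the whole-fragment steps among low values, and came to 45500000 to 63250000 fragments in the KDM1A KO libraries and 60750000 to 67000000 in the Control libraries. KDM1A KO replicate 2 stood apart on the second principal component (-36.5, against -17.8 to 26.3 in the others) and had 1642 transcript entries at 0, against 506 to 734. A single small RNA gene, Mir5105, held 29.4% to 52.7% of all FPKM in the KDM1A KO libraries and 61.3% to 77.1% in the Control libraries. The scaling of the libraries therefore bears on the size of the log2 changes given here and on some of their directions. Nothing in the labels says that libraries came from separate animals, so the p-values reflect the spread among these samples alone, and that spread may be technical. In sorted bulk cells, fewer cells of a type and less RNA per cell cannot be told apart.

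Among the 38 genes, 7 were higher in KDM1A KO, 15 were lower and 16 were not called. A call here is a Benjamini-Hochberg adjusted p under 0.05 in limma, fitted on log2(FPKM + 1) over 15083 genes. Over all genes tested, 37.6% were called in either direction, 25.9% higher and 11.8% lower, and of the 38 genes 18.4% were higher and 39.5% lower. In 6 genes all KDM1A KO values lay above all Control values, and in 17 all lay below, where the shares over all genes were 26.4% and 12.1%. The median log2 change of the 38 was -0.21, beside 0.10 for all genes. With every library scaled to the same FPKM total, the median of all genes was 0.71 and that of the 38 genes 0.37, and 7 of the 15 lower genes (Dvl1, Dvl2, Dvl3, Tcf7, Tcf7l2, Gsk3b and Fzd3) turned positive. Relative to the median of all genes, the 7 higher genes stayed above it and the 15 lower genes below it under all 5 scalings tried. Scaling moves most genes of a library nearly alike, so this position was almost fixed in advance and is no check on a direction. Lef1, Dkkl1 and Wnt5a (higher) and Wnt3 and Sfrp2 (lower) were called in their direction under each of the 5 scalings. Of these, Wnt5a passed the floor of 0.5 FPKM through KDM1A KO only, so its place here depends on the difference itself. The count of higher genes fell to 4 without KDM1A KO replicate 3 or 4 or Control replicate 1 or 3. The plot of levels by role shows each library.

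**Figure D1:**
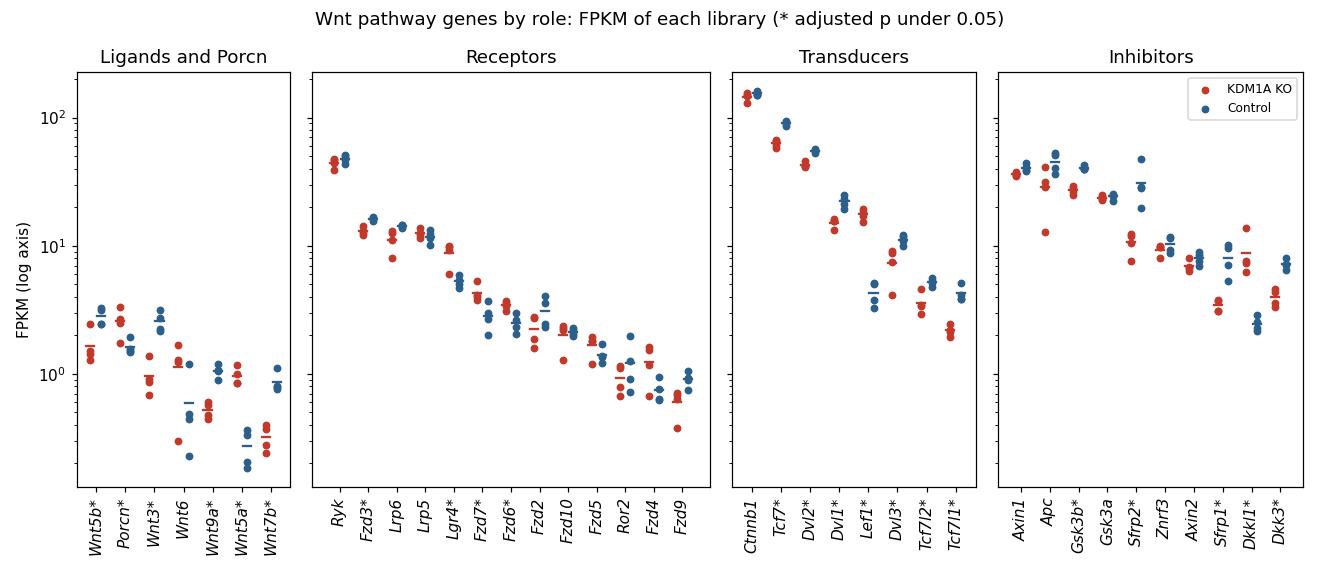
FPKM on a log axis for the 38 Wnt pathway genes in 4 panels by role. Each point is a library, red for KDM1A KO on the left of each gene and blue for Control on the right, short lines are group means (n = 4 each), and an asterisk marks an adjusted p under 0.05. Lef1 stands above its Control values at 15.4 to 19.4 FPKM, against 3.25 to 5.14 FPKM in Control, while Sfrp2, Sfrp1, Dkk3 and Tcf7l1 lie below theirs.

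The Wnt ligand genes were low in these cells and shifted in their make-up, with Wnt5a up and Wnt3, Wnt7b and Wnt9a down in KDM1A KO. The means of Wnt5a in Control (0.272 FPKM) and of Wnt7b in KDM1A KO (0.322 FPKM) lay under the floor of 0.5 FPKM. Both genes passed the floor only through the group where they were high, so their place among the called genes depends on the difference itself. Summed over the 13 Wnt genes in the table, the ligands as deposited came to 7.20 ± 0.539 FPKM in KDM1A KO and 10.5 ± 0.955 FPKM in Control (SD, n = 4 each). Wnt5a, a ligand mostly known for signals that do not run through beta-catenin (chr14:28504750-28527448, plus strand, ENSMUSG00000021994, mm10), was at 1.17, 0.851, 1.01 and 0.852 FPKM in KDM1A KO and at 0.366, 0.184, 0.205 and 0.332 FPKM in Control. Every KDM1A KO library was above every Control library, and the mean was 3.57-fold higher (log2 change 0.63, SE 0.09, limma adjusted p = 0.000635). These levels correspond to about 40.8 to 260 fragments per library at the inferred depth. The share of Wnt5a in the ligand sum was 13.6% ± 2.92 in KDM1A KO and 2.55% ± 0.645 in Control.

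Wnt3, a ligand that acts through beta-catenin (chr11:103774150-103817957, plus strand, ENSMUSG00000000125), was at 0.683, 1.37, 0.915 and 0.871 FPKM in KDM1A KO, against 2.73, 2.23, 2.17 and 3.14 FPKM in Control. The groups did not overlap, and Control was 2.67-fold above KDM1A KO (log2 change -0.87, SE 0.13, limma adjusted p = 0.000973). Its share of the ligand sum was 13.2% ± 3.19 in KDM1A KO and 24.3% ± 2.75 in Control. Wnt7b was at 0.241, 0.397, 0.374 and 0.277 FPKM in KDM1A KO, against 1.11, 0.758, 0.789 and 0.810 FPKM in Control, and Control replicate 1 was the highest library (log2 change -0.49, limma adjusted p = 0.00218). Wnt9a, at 0.475, 0.446, 0.572 and 0.608 FPKM in KDM1A KO, was at 1.07, 1.05, 1.19 and 0.903 FPKM in Control, again without overlap (log2 change -0.43, limma adjusted p = 0.003). With equal totals the log2 changes of Wnt7b and Wnt9a were -0.25 and -0.12, and neither was called.

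Wnt5b, a paralog of Wnt5a and the most abundant ligand by mean, went in the opposite direction to it. Its values were 1.42, 2.44, 1.27 and 1.51 FPKM in KDM1A KO and 2.43, 2.46, 3.13 and 3.27 FPKM in Control, where KDM1A KO replicate 2 reached the lowest Control value (log2 change -0.54, SE 0.15, limma adjusted p = 0.0184). The call was lost without KDM1A KO replicate 3 (limma adjusted p = 0.0581) or without Control replicate 3 (0.0526) or 4 (0.0503). With equal totals the log2 change of Wnt5b was -0.045 and was not called. Porcn, the acyltransferase that Wnt secretion depends on, was at 1.73, 2.51, 2.70 and 3.33 FPKM in KDM1A KO and at 1.52, 1.94, 1.57 and 1.49 FPKM in Control. The groups overlapped through KDM1A KO replicate 1 (log2 change 0.43, limma adjusted p = 0.0396), and the call was lost without KDM1A KO replicate 2, 3 or 4 or Control replicate 1, 3 or 4, with adjusted p between 0.0511 and 0.0968. With median-ratio scaling, quantile normalization or small RNAs removed the call on Porcn was lost too (limma adjusted p from 0.0957 to 0.212). The 2 largest transcript entries of Porcn, 34.2% and 28.9% of the gene's FPKM, are annotated as targets of nonsense-mediated decay.

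Wnt6 was not called, and its groups overlapped. It was at 1.23, 0.299, 1.69 and 1.28 FPKM in KDM1A KO and at 1.19, 0.230, 0.442 and 0.489 FPKM in Control (log2 change 0.41, limma adjusted p = 0.217), so KDM1A KO replicate 2 sat with the low Control libraries and Control replicate 1 with the high KDM1A KO libraries. Without KDM1A KO replicate 2 it was called higher (log2 change 0.63, limma adjusted p = 0.0225). Of 13 genes known from Sertoli cells, 10 were likewise lowest of the KDM1A KO group in replicate 2, and 11 were highest of the Control group in replicate 1. Ctsl, Gata1 and Rhox5 were instead highest of the KDM1A KO group in replicate 2, and Rhox5 was lowest of the Control group in replicate 1. Amh, the Sertoli hormone, was at 4.38, 2.18, 7.32 and 4.63 FPKM in KDM1A KO and at 4.21, 0.894, 1.79 and 2.52 FPKM in Control. Clu, a secreted Sertoli product, was at 20.3, 11.7, 27.6 and 26.0 FPKM in KDM1A KO and at 25.1, 7.54, 7.05 and 9.62 FPKM in Control. The part of Sertoli RNA in the level of Wnt6 was not tested.

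**Figure D2:**
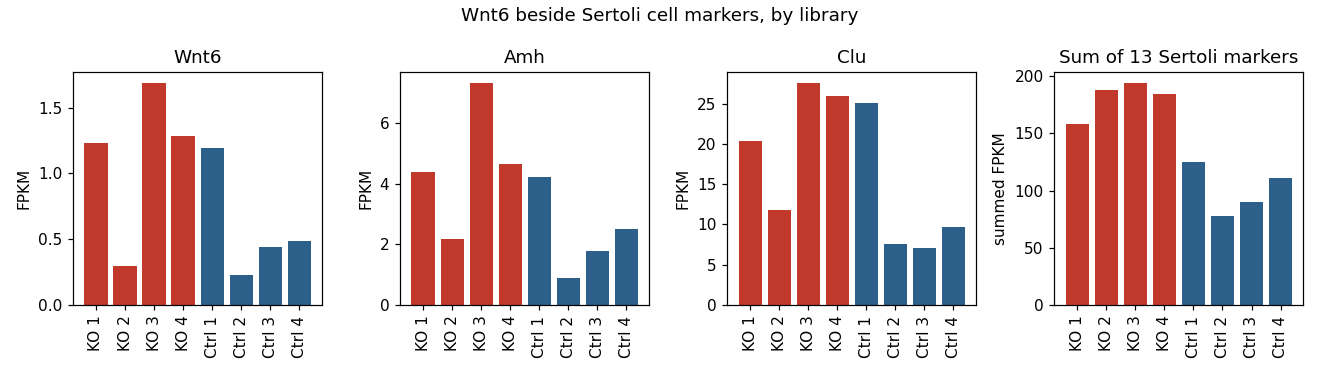
FPKM of Wnt6, Amh and Clu and the summed FPKM of 13 Sertoli cell markers in each library, red for KDM1A KO replicates 1 to 4 and blue for Control replicates 1 to 4. Wnt6, Amh and Clu are low in KDM1A KO replicate 2 and high in Control replicate 1 relative to the rest of their groups, while the summed markers, to which Ctsl contributes most, run from 158 to 194 FPKM in KDM1A KO and from 77.5 to 125 FPKM in Control.

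Of the marker lists for other testis cells, the 13 Sertoli genes in the table summed to 158 to 194 FPKM in KDM1A KO and 77.5 to 125 FPKM in Control. Ctsl alone gave 98.3 to 142 FPKM of this in KDM1A KO and 54.4 to 79.7 FPKM in Control. The difference in the mean log2(FPKM + 1) of the list was 0.55 (exact two-sided permutation test, p = 0.0571, adjusted p = 0.1 over 7 lists). The 6 endothelial markers in the table summed to 14.7 to 15.6 FPKM in KDM1A KO and 5.85 to 8.11 FPKM in Control. The 2 blood markers summed to 1.60 to 2.50 FPKM in KDM1A KO and 0.282 to 0.760 FPKM in Control. Of these 2, Alas2 averaged 1.65 FPKM in KDM1A KO and 0.289 FPKM in Control, and Hbb-b1 0.234 FPKM in KDM1A KO and 0.268 FPKM in Control. No marker in the table was at 0 in all libraries. Only 2 of 7 listed Leydig, 2 of 6 blood and 3 of 7 macrophage markers were in it. Differences of the lists were 0.60 for endothelial and 0.49 for blood markers, each with the smallest p that 4 against 4 allows (exact permutation test, p = 0.0286, adjusted p = 0.0667). Of the endothelial genes, Tek, Pecam1 and Flt1 were called higher (log2 change 1.31, 1.22 and 0.41), and Cdh5 and Kdr were not called (0.11 and 0.03). Emcn, not tested, averaged 0.556 FPKM in KDM1A KO and 0.0865 FPKM in Control. Ddx4 and Dazl, which define germ cells, were at 181 to 191 and 430.0 to 469 FPKM in KDM1A KO and at 176 to 216 and 368 to 435 FPKM in Control. The 12 germ cell markers summed to 1641 to 2178 FPKM in KDM1A KO and 1758 to 1896 FPKM in Control, and their mean log2 level was 0.32 lower in KDM1A KO (difference -0.32, exact permutation p = 0.0286, adjusted p = 0.0667). Of these, Zbtb16, Lin28a and Sall4, known from undifferentiated spermatogonia, were lower without overlap. Gfra1, Id4, Pou5f1, Uchl1, Kit and Stra8 overlapped between the groups and were not called (log2 change -0.26, 0.09, -0.31, 0.03, -0.74 and -0.17). Zbtb16 averaged 22.3 ± 7.21 FPKM in KDM1A KO and 61.2 ± 7.62 FPKM in Control (log2 change -1.47, limma adjusted p = 0.000878). Lin28a averaged 36.2 ± 1.99 FPKM in KDM1A KO and 74.3 ± 6.61 FPKM in Control (log2 change -1.01), and Sall4 46.4 ± 8.94 FPKM in KDM1A KO and 76.4 ± 5.06 FPKM in Control (log2 change -0.72, and -0.01 with equal totals). Tex101, a germ cell surface protein gene, was higher, at 165 ± 34.5 FPKM in KDM1A KO and 102 ± 23.6 FPKM in Control (log2 change 0.69, limma adjusted p = 0.016). Leydig cell (2 markers), peritubular myoid (5) and macrophage (3) lists differed by 0.16, 0.10 and 0.00 (exact permutation adjusted p = 0.367, 0.367 and 1). The part of such cells in the results for single Wnt genes was not tested.

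Of the 13 receptor genes, Lgr4, Fzd7 and Fzd6 were higher in KDM1A KO, Fzd3 was lower and 9 were not called, with a median log2 change of -0.06. The shares called, 23.1% higher and 7.69% lower, were no larger than the 25.9% and 11.8% over all genes. Lgr4, the R-spondin receptor (chr2:109917647-110014257, plus strand, ENSMUSG00000050199), was at 9.73, 6.07, 9.23 and 9.87 FPKM in KDM1A KO and at 5.43, 5.94, 5.04 and 4.69 FPKM in Control. KDM1A KO replicate 2 lay just above the highest Control library and the groups did not overlap (1.65-fold, log2 change 0.61, SE 0.15, limma adjusted p = 0.0103). When only its largest transcript entry was used, 88.1% of the gene's FPKM, the change was 0.37 on the log2 scale and was not called (limma adjusted p = 0.408). The call on Lgr4 was also lost with small RNAs removed and equal totals (limma adjusted p = 0.0638).

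Frizzled genes encode the Wnt receptors themselves, and their sum as deposited was 29.2 ± 2.42 FPKM in KDM1A KO and 30.3 ± 1.34 FPKM in Control. Fzd7, at 4.15, 3.79, 3.96 and 5.30 FPKM in KDM1A KO, was at 2.99, 2.00, 2.68 and 3.70 FPKM in Control, the groups just parting (log2 change 0.47, limma adjusted p = 0.0337). Fzd6 was at 3.37, 3.11, 3.54 and 3.69 FPKM in KDM1A KO and at 2.31, 2.96, 2.63 and 2.05 FPKM in Control, also without overlap (log2 change 0.35, limma adjusted p = 0.0287). Only 23.0% of the FPKM of Fzd7 lay in an entry found in the GENCODE annotation, and that entry alone gave a log2 change of 0.17 (limma adjusted p = 0.376). Both calls were lost with median-ratio scaling, quantile normalization or small RNAs removed (limma adjusted p from 0.0786 to 0.178 for Fzd7 and from 0.130 to 0.277 for Fzd6). They were also lost in most fits that left out a library. That of Fzd7 was lost without KDM1A KO replicate 1, 3 or 4 or Control replicate 1, 2 or 3 (limma adjusted p from 0.0548 to 0.0881), and that of Fzd6 without KDM1A KO replicate 1, 3 or 4 or Control replicate 1, 3 or 4 (from 0.0508 to 0.0757). Fzd3, the most abundant Frizzled gene, was at 14.2, 12.2, 12.6 and 13.0 FPKM in KDM1A KO and at 16.4, 16.1, 15.7 and 16.7 FPKM in Control (log2 change -0.30, limma adjusted p = 0.0127), a direction that turned to 0.38 with equal totals. Its share of the Frizzled sum was 44.6% ± 2.73 in KDM1A KO and 53.5% ± 1.67 in Control.

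The other 9 receptors were not called. Ryk, a receptor for WNT5A among others and the most abundant gene of this role, was at 38.6, 47.9, 44.0 and 46.5 FPKM in KDM1A KO and at 46.4, 43.2, 49.9 and 50.6 FPKM in Control, with overlapping groups. The co-receptor gene Lrp6 was at 13.0, 8.04, 11.0 and 12.5 FPKM in KDM1A KO and at 14.6, 13.7, 14.0 and 14.5 FPKM in Control (log2 change -0.34, limma adjusted p = 0.0687). All its KDM1A KO values were below Control, with replicate 2 the lowest, and it was called lower without KDM1A KO replicate 1 (log2 change -0.42, limma adjusted p = 0.0412). Lrp5, the other co-receptor, averaged 12.5 ± 0.975 FPKM in KDM1A KO and 11.8 ± 1.35 FPKM in Control. Fzd4 averaged 1.25 ± 0.428 FPKM in KDM1A KO and 0.743 ± 0.150 FPKM in Control, and of the fits that left out a library it was called higher in that without KDM1A KO replicate 2 (log2 change 0.48, limma adjusted p = 0.00536). Mean levels of Fzd2, Fzd5, Fzd9, Fzd10 and Ror2 were 2.25, 1.69, 0.602, 2.02 and 0.932 FPKM in KDM1A KO, against 3.09, 1.41, 0.906, 2.13 and 1.21 FPKM in Control. The groups of Fzd9 did not overlap (log2 change -0.25, limma adjusted p = 0.0644). Fzd9 was called lower with no filter, median-ratio scaling, quantile normalization or small RNAs removed (limma adjusted p from 0.00717 to 0.0493), but its log2 change was 0.04 with equal totals.

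Among the transducers, Lef1 was higher in KDM1A KO while its 3 relatives Tcf7, Tcf7l1 and Tcf7l2 and all 3 Dishevelled genes were lower, and the beta-catenin gene itself was not called. The shares called as deposited were 12.5% higher and 75% lower, beside 25.9% and 11.8% of all genes. With equal totals Tcf7, Tcf7l2 and the Dishevelled genes turned positive (0.06 to 0.35 on the log2 scale). They stayed under the median of all genes, a position that scaling can hardly change. Lef1 (lymphoid enhancer-binding factor, chr3:131110471-131224356, plus strand, ENSMUSG00000027985) was at 18.4, 19.4, 15.4 and 17.1 FPKM in KDM1A KO and at 3.75, 5.14, 5.03 and 3.25 FPKM in Control. Every KDM1A KO library was far above every Control library, and the mean was 4.09-fold higher, 17.6 ± 1.71 against 4.29 ± 0.940 FPKM (log2 change 1.82, SE 0.14, limma adjusted p = 2.06e-05). Its change was between 1.68 and 2.46 on the log2 scale under the 5 scalings.

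Tcf7, which encodes TCF1 (chr11:52252371-52283014, minus strand, ENSMUSG00000000782), was the most abundant of the 4 factors. It was at 57.4, 65.5, 66.9 and 61.3 FPKM in KDM1A KO, against 93.5, 91.6, 89.8 and 86.7 FPKM in Control, with no overlap (log2 change -0.52, SE 0.07, limma adjusted p = 0.000615, and 0.19 with equal totals). Tcf7l1 encodes a factor known mainly as a repressor. It was at 2.45, 1.95, 2.20 and 2.13 FPKM in KDM1A KO and at 4.10, 3.85, 5.13 and 3.86 FPKM in Control, also apart (log2 change -0.71, limma adjusted p = 0.000842, and -0.17, not called, with equal totals). Tcf7l2 was at 4.61, 3.39, 2.91 and 3.42 FPKM in KDM1A KO and at 5.64, 4.78, 5.09 and 5.27 FPKM in Control, with KDM1A KO replicate 1 nearest to Control (log2 change -0.45, limma adjusted p = 0.0178). Its call was lost without KDM1A KO replicate 3 (limma adjusted p = 0.0569) or Control replicate 1 (0.0522), and its largest transcript entry did not follow the sum, at 1.85 ± 0.391 FPKM in KDM1A KO and 1.77 ± 0.669 FPKM in Control.

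Within the TCF/LEF family, Lef1 made up 20.4% ± 2.00 of the summed FPKM in KDM1A KO and 4.11% ± 0.839 in Control, and Tcf7 72.9% ± 2.95 in KDM1A KO and 86.8% ± 0.932 in Control. These shares do not depend on how libraries are scaled to each other. The 4 genes together came to 86.1 ± 3.35 FPKM in KDM1A KO and 104 ± 3.47 FPKM in Control.

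**Figure D3:**
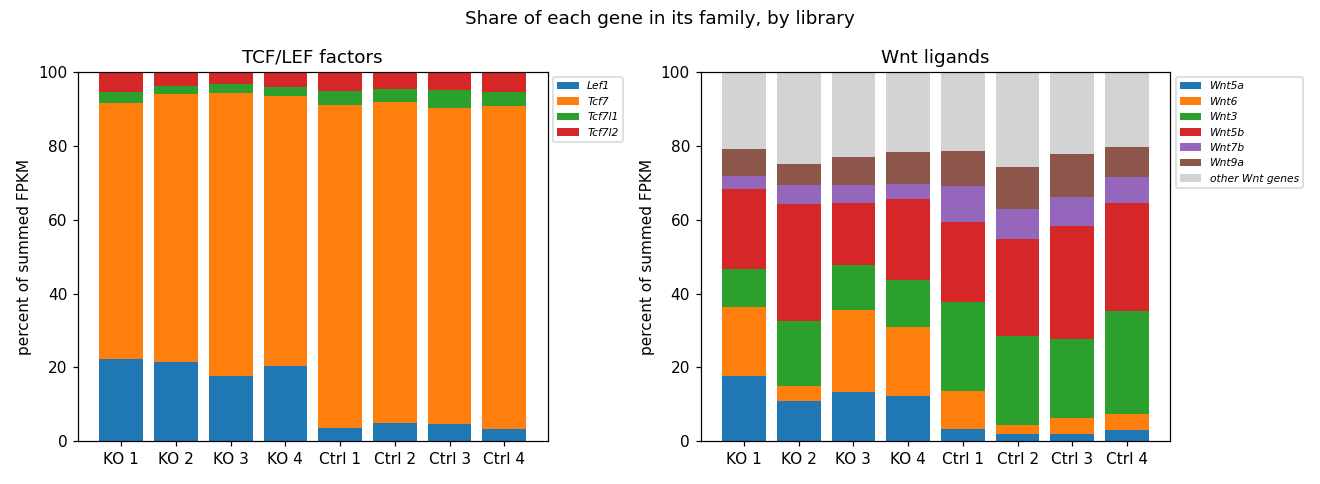
Percent of summed FPKM taken by each TCF/LEF gene (left) and each Wnt ligand gene (right) in the 4 KDM1A KO and 4 Control libraries, 1 stacked bar per library. Lef1 takes 17.6% to 22.2% of its family in KDM1A KO, against 3.28% to 4.88% in Control, and Wnt5a takes 11.0% to 17.7% of the ligands in KDM1A KO, against 1.98% to 3.23% in Control.

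All 3 transcript entries of Lef1 were higher in KDM1A KO. ENSMUST00000098611, 61.3% of the gene's FPKM, was at 10.7 ± 2.81 FPKM in KDM1A KO and 2.71 ± 0.655 FPKM in Control. It starts 2326 bases downstream of the other 2 entries and has 331 coding codons, while ENSMUST00000106341 (3.63 ± 1.13 FPKM in KDM1A KO and 0.964 ± 0.217 in Control) has 384 and ENSMUST00000066849 (3.24 ± 2.37 in KDM1A KO and 0.612 ± 0.233 in Control) has 369. These Lef1 entries were not tested one against another. In human cells a LEF1 form from an internal start lacks the beta-catenin binding end; whether the shorter mouse entry does was not tested. Because Lef1 carried the largest change and has starts at several places, the bases before 3 of its 4 RefSeq starts (GRCm38.p6, plus strand, 250 bases each and outside annotated exons) are shown. The window not shown, chr3:131110073-131110322, overlaps the first and holds no hexamer of the kind marked. The first lies upstream of the gene's GENCODE start, the second just upstream of the start of ENSMUST00000098611 within an intron of the longer entries, and the third further down in an intron. Capitals mark the hexamers CTTTGA and CTTTGT, cores of the TCF/LEF motif, on either strand (TCAAAG and ACAAAG where they lie on the other).
Lef1 chr3:131110047-131110296(+): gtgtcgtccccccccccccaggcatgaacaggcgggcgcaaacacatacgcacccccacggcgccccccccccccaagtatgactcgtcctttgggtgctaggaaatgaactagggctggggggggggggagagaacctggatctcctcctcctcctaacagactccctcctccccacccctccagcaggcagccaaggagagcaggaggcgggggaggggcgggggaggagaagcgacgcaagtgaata
Lef1 chr3:131112541-131112790(+): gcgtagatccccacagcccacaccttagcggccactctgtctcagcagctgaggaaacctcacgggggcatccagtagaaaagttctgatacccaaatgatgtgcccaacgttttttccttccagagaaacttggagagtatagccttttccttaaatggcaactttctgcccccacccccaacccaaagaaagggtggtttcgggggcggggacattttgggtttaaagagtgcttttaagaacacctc
Lef1 chr3:131156044-131156293(+): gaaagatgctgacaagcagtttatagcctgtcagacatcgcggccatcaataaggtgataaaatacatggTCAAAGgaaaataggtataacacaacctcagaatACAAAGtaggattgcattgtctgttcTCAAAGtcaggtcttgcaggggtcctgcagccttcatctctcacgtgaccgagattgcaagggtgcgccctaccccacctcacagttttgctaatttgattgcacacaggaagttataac
Of these windows the hexamers were in the third only, 3 times. They were in 24.2% of the 33 windows found for 25 of the 38 genes and in 27.6% of all 32851 RefSeq windows. The windows of the 25 genes had a median GC content of 68.0% and 22 CpG, against 52.4% and 6 over all windows.

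The Dishevelled genes, whose products relay the signal from the receptor, came as deposited to 65.4 ± 1.44 FPKM in KDM1A KO and 88.6 ± 4.27 FPKM in Control. Dvl2 was at 42.0, 46.0, 42.6 and 41.2 FPKM in KDM1A KO and at 56.1, 54.6, 57.3 and 53.1 FPKM in Control (log2 change -0.36, limma adjusted p = 0.003, and 0.35 with equal totals). Dvl1 was at 16.0, 13.2, 15.6 and 15.5 FPKM in KDM1A KO and at 21.1, 24.7, 23.3 and 19.4 FPKM in Control (log2 change -0.52, limma adjusted p = 0.00294, and 0.16 with equal totals). Dvl3 was at 8.72, 4.14, 7.43 and 9.11 FPKM in KDM1A KO and at 11.7, 12.1, 10.9 and 9.90 FPKM in Control (log2 change -0.59, limma adjusted p = 0.0434, and 0.06 with equal totals). In none of the 3 did the groups overlap, and KDM1A KO replicate 2 was the lowest library for Dvl1 and Dvl3 but the highest of its group for Dvl2. The call on Dvl3 was lost without KDM1A KO replicate 3 or without any of the Control libraries (limma adjusted p from 0.0599 to 0.102). The main coding entry of Dvl1, at 6.25 ± 1.35 FPKM in KDM1A KO and 4.99 ± 0.532 FPKM in Control, went against the sum, whose fall lay in a second coding entry (2.02 ± 1.38 FPKM in KDM1A KO and 5.40 ± 1.39 FPKM in Control) and in entries with retained introns.

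Ctnnb1, which encodes beta-catenin and was the most abundant of all 38 genes, was at 156, 129, 146 and 149 FPKM in KDM1A KO and at 162, 151, 154 and 150.0 FPKM in Control. The groups overlapped and KDM1A KO replicate 2 was the lowest library (log2 change -0.09, SE 0.08, limma adjusted p = 0.426).

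On the log2(FPKM + 1) scale, Sfrp2, Dkkl1 and Sfrp1, grouped as inhibitors by their symbols, had the largest differences after Lef1, in opposite directions. Whether Dkkl1 acts on Wnt signals was not tested. Sfrp2 and Sfrp1, which encode soluble Frizzled-like proteins that bind Wnts, and Dkk3, a divergent Dickkopf gene, were lower in KDM1A KO, and Dkkl1 was higher. Sfrp2 (chr3:83766321-83774316, plus strand, ENSMUSG00000027996) was at 7.63, 12.4, 10.6 and 11.8 FPKM in KDM1A KO and at 28.3, 19.7, 28.6 and 47.4 FPKM in Control. The highest KDM1A KO library was under the lowest Control library, and Control was 2.93-fold above KDM1A KO (log2 change -1.42, SE 0.24, limma adjusted p = 0.00169). Sfrp1 was at 3.80, 3.11, 3.09 and 3.67 FPKM in KDM1A KO and at 7.01, 5.35, 9.62 and 10.1 FPKM in Control (log2 change -0.997, SE 0.18, limma adjusted p = 0.00205). Dkk3 was at 3.35, 4.58, 4.32 and 3.59 FPKM in KDM1A KO and at 6.43, 7.21, 7.05 and 8.01 FPKM in Control (log2 change -0.72, SE 0.11, limma adjusted p = 0.001). None of the 3 had overlapping groups. With equal totals the log2 changes of Sfrp1 and Dkk3 were -0.39 and -0.12, and neither was called.

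Dkkl1, or soggy, is a Dkk3 relative best known from spermatocytes and the acrosome of sperm (chr7:45207519-45212147, minus strand, ENSMUSG00000030792). It was at 6.29, 13.8, 7.65 and 7.31 FPKM in KDM1A KO, against 2.18, 2.28, 2.53 and 2.88 FPKM in Control. All KDM1A KO libraries were above Control, replicate 2 by the most, and the mean was 3.55-fold higher (log2 change 1.44, SE 0.20, limma adjusted p = 0.000611). Of the summed FPKM of Sfrp1, Sfrp2, Dkk3 and Dkkl1, Dkkl1 made up 32.1% ± 5.91 in KDM1A KO and 5.27% ± 1.001 in Control, and Sfrp2 39.7% ± 4.08 in KDM1A KO and 62.7% ± 5.40 in Control.

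Of the 5 destruction complex genes, Gsk3b was called and Gsk3a, Axin1, Axin2 and Apc were not, where 37.6% of all genes were called in either direction. Gsk3b, whose kinase product marks beta-catenin for breakdown, was at 29.2, 25.0, 28.0 and 26.3 FPKM in KDM1A KO and at 43.0, 39.8, 39.8 and 39.4 FPKM in Control (log2 change -0.56, SE 0.07, limma adjusted p = 0.000422, and 0.14 with equal totals). The groups were well apart. Its largest entry, ENSMUST00000114750, was at 16.2 ± 1.61 FPKM in KDM1A KO and 26.9 ± 1.62 FPKM in Control, while the second, ENSMUST00000023507, was at 8.96 ± 1.33 FPKM in KDM1A KO and 9.60 ± 0.863 FPKM in Control. Its paralog Gsk3a averaged 23.7 ± 0.884 FPKM in KDM1A KO and 24.2 ± 1.21 FPKM in Control.

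Axin1, the scaffold of the complex, was at 37.9, 35.2, 35.4 and 36.1 FPKM in KDM1A KO and at 44.1, 40.8, 39.0 and 38.1 FPKM in Control, just without overlap but not called (log2 change -0.16, limma adjusted p = 0.113). Axin2, both a scaffold and a widely used target of beta-catenin, was at 7.97, 6.39, 6.73 and 6.77 FPKM in KDM1A KO and at 8.89, 8.47, 6.95 and 7.63 FPKM in Control, with overlap (log2 change -0.17, SE 0.10, limma adjusted p = 0.223). Apc was at 41.5, 12.8, 28.8 and 31.5 FPKM in KDM1A KO and at 53.1, 50.9, 40.5 and 36.1 FPKM in Control. Both groups spread widely and overlapped (log2 change -0.73, SE 0.30, limma adjusted p = 0.0867), and Apc was called lower without KDM1A KO replicate 1 (log2 change -0.94, limma adjusted p = 0.0325). Its largest entry, ENSMUST00000079362, was at 10.5 ± 8.45 FPKM in KDM1A KO and 22.3 ± 7.34 FPKM in Control, and at 2.14e-06 FPKM in KDM1A KO replicate 2. The second entry, ENSMUST00000115781, was at 14.6 ± 2.37 FPKM in KDM1A KO and 16.8 ± 1.42 FPKM in Control. Znrf3, the ligase that removes Frizzled, averaged 9.33 ± 0.920 FPKM in KDM1A KO and 10.3 ± 1.49 FPKM in Control and was not called.

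**Figure D4:**
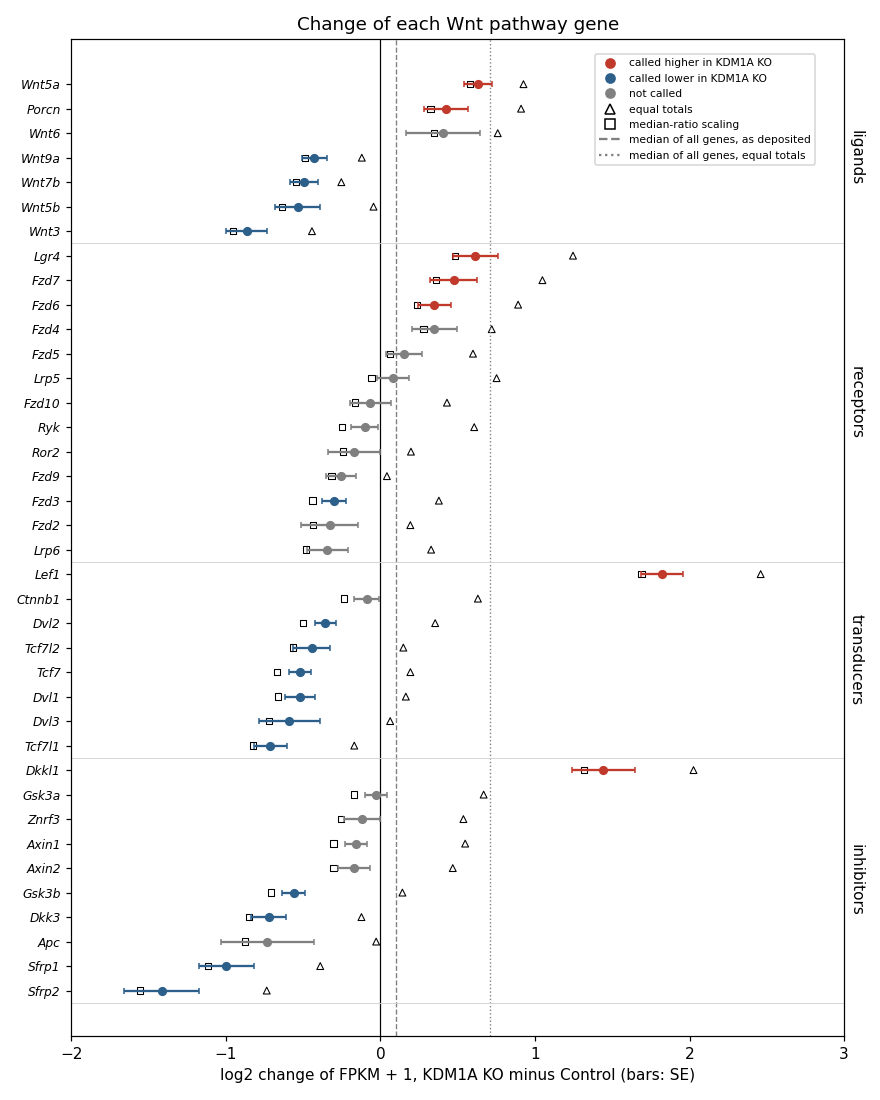
Log2 change of FPKM + 1, KDM1A KO minus Control, for each of the 38 genes by role, with bars for SE (red called higher, blue called lower, grey not called). Triangles and squares give the change with equal totals and median-ratio scaling, and the dashed and dotted lines the median of all genes as deposited (0.10) and with equal totals (0.71). Lef1 and Dkkl1 lie far to the right, Sfrp2 and Sfrp1 far to the left, and with equal totals 7 of the 15 lower genes cross 0. None crosses the dotted line, a position that scaling can hardly change.

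The 14 genes under the floor were Wnt2, Wnt2b, Wnt3a, Wnt4, Wnt7a, Wnt9b, Wnt11, Fzd1, Fzd8, Lgr6, Ror1, Dkk2, Sfrp4 and Sfrp5, and they were not tested. Their means over the libraries were 0.125 to 0.488 FPKM. Wnt9b was at 0.0664 to 0.127 FPKM in KDM1A KO and 0.275 to 0.309 FPKM in Control, and Wnt3a at 0.0238 to 0.0790 FPKM in KDM1A KO and 0.132 to 0.259 FPKM in Control, about 3 to 42.9 fragments in a library. Dkk2 was at 0.237 to 0.561 FPKM in KDM1A KO and 0.126 to 0.168 FPKM in Control, and Fzd8 at 0.297 to 0.415 FPKM in KDM1A KO and 0.171 to 0.247 FPKM in Control. Wnt2b was at 0.297 to 0.426 FPKM in KDM1A KO and 0.478 to 0.727 FPKM in Control, and Wnt7a at 0.254 to 0.344 FPKM in KDM1A KO and 0.354 to 0.464 FPKM in Control. In these 6 the groups did not overlap, with 2 of the 14 above Control and 4 below (14.3% and 28.6%, beside 28.8% and 9.34% of all 2506 genes under the floor).

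Genes of the pathway outside the 38 were read from a list of cofactors, of which 68 of 80 listed were tested. Of these, 10 were higher and 19 lower in KDM1A KO (14.7% and 27.9%, beside 25.9% and 11.8% of all genes), with a median log2 change of -0.14. The higher count was 6 without KDM1A KO replicate 4 and the lower count 12 without Control replicate 1. Of this list, the largest log2 changes were those of Rspo1 and Rspo2, whose R-spondin products are ligands of Lgr4. Rspo1 was at 0.330, 0.354, 0.494 and 0.197 FPKM in KDM1A KO and at 2.23, 4.70, 3.98 and 2.91 FPKM in Control, 10.1-fold more in Control (log2 change -1.70, SE 0.17, limma adjusted p = 9.09e-05). Rspo2 was at 3.78, 5.53, 4.27 and 4.69 FPKM in KDM1A KO and at 11.0, 8.55, 13.8 and 17.7 FPKM in Control (log2 change -1.27, SE 0.20, limma adjusted p = 0.00101). Both were called lower under all 5 scalings and in all 8 fits that left out a library. Rspo1 lay under the floor of 0.5 FPKM in every KDM1A KO library and passed it through Control only. Rspo4, at 7.75 ± 0.678 FPKM in KDM1A KO and 10.3 ± 0.809 FPKM in Control, was lower as deposited (log2 change -0.37, limma adjusted p = 0.012) but at 0.28 with equal totals. The R-spondin plot sets these against Lgr4, which was higher.

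**Figure D5:**
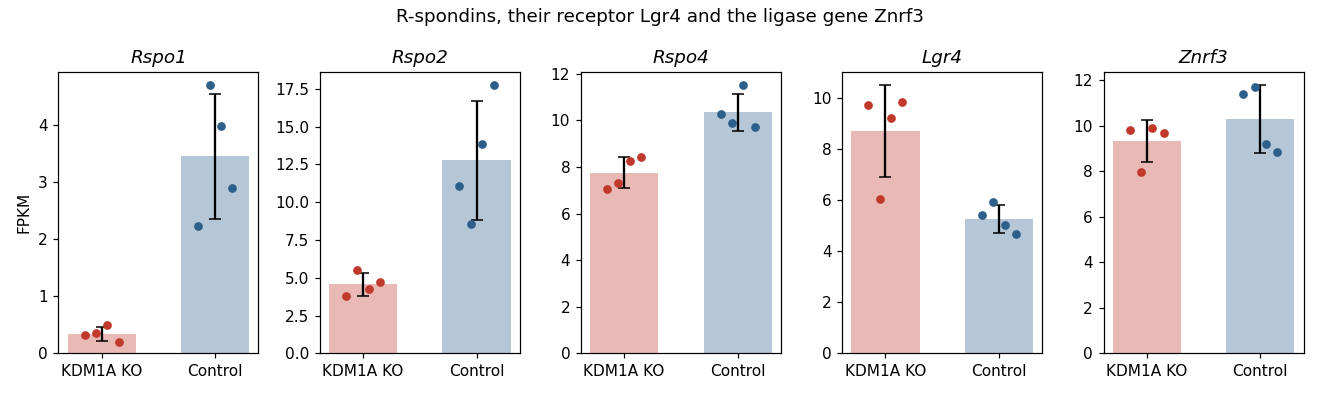
FPKM of the R-spondin genes Rspo1, Rspo2 and Rspo4, their receptor gene Lgr4 and the ligase gene Znrf3, with KDM1A KO left of Control in each panel (points are libraries, bars means, error bars SD, n = 4 each). Rspo1 averages 0.344 FPKM in KDM1A KO and 3.46 FPKM in Control, and Lgr4 8.72 FPKM in KDM1A KO and 5.27 FPKM in Control; the directions of Rspo4 and Znrf3 flip with equal totals.

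Of the other cofactors, Tle3, a Groucho corepressor that binds TCF/LEF factors, was at 55.3, 45.8, 53.7 and 50.4 FPKM in KDM1A KO and at 122, 105, 101 and 87.1 FPKM in Control (log2 change -0.997, SE 0.11, limma adjusted p = 0.000155). Its groups were far apart and the call held in all 8 fits that left out a library. Nkd2, a Dishevelled antagonist, averaged 0.971 ± 0.136 FPKM in KDM1A KO and 2.75 ± 0.831 FPKM in Control (log2 change -0.90). Crebbp, a coactivator of beta-catenin, averaged 14.99 ± 6.31 FPKM in KDM1A KO and 28.0 ± 6.70 FPKM in Control, with overlap (log2 change -0.94, limma adjusted p = 0.0452). Its call was lost without KDM1A KO replicate 3 or 4 or Control replicate 1, 2 or 3 (limma adjusted p up to 0.113). The higher genes of largest change were Caprin2 (123 ± 17.7 FPKM in KDM1A KO and 71.6 ± 1.65 in Control), which promotes phosphorylation of LRP6, the kinase gene Nlk (14.9 ± 3.17 FPKM in KDM1A KO and 9.07 ± 0.398 FPKM in Control), the glypican gene Gpc3 (12.5 ± 1.11 FPKM in KDM1A KO and 7.83 ± 1.18 FPKM in Control), Lypd6 (3.13 ± 0.465 FPKM in KDM1A KO and 1.68 ± 0.0908 FPKM in Control) and Amer1, a partner of APC (2.93 ± 1.15 FPKM in KDM1A KO and 1.32 ± 0.0585 FPKM in Control). The call on Amer1 held in 1 of the 8 fits that left out a library, the fit without KDM1A KO replicate 2.

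For signalling that does not run through beta-catenin, 39 of 46 listed genes were tested, and 4 were higher and 6 lower (10.3% and 15.4%, beside 25.9% and 11.8% of all genes, median log2 change -0.07). The lower count was 3 without Control replicate 1. Ptk7, a co-receptor of planar cell polarity, was at 32.2, 31.9, 33.5 and 37.2 FPKM in KDM1A KO and at 58.4, 59.7, 62.2 and 65.1 FPKM in Control, well apart (log2 change -0.85, SE 0.08, limma adjusted p = 4.67e-05). With equal totals the lower count of this list was 0, so the call on Ptk7 was lost there. The cadherins Celsr1 and Celsr2, of the same polarity pathway, averaged 0.517 and 2.65 FPKM in KDM1A KO and 1.05 and 3.78 FPKM in Control, and the call on Celsr2 was lost without Control replicate 1 (limma adjusted p = 0.0611), its change being 0.16 with equal totals. Nfatc1 averaged 0.549 FPKM in KDM1A KO and 1.16 FPKM in Control, while its relative Nfatc4 was higher, 0.894 FPKM in KDM1A KO and 0.235 FPKM in Control. The Control mean of Nfatc4 lay under the floor of 0.5 FPKM, which the gene passed through KDM1A KO only. Prickle2 (2.27 FPKM in KDM1A KO and 0.852 in Control), Plcb4 (14.6 FPKM in KDM1A KO and 10.0 FPKM in Control) and the calcineurin gene Ppp3ca (22.6 FPKM in KDM1A KO and 16.4 FPKM in Control) were the other higher genes. Camk2b, at 2.94 FPKM in KDM1A KO and 4.68 FPKM in Control, kept its call in 1 of the 8 fits that left out a library.

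Genes known from other tissues as targets of beta-catenin went both ways, 7 higher and 9 lower of 32 tested (21.9% and 28.1%, beside 25.9% and 11.8% of all genes; 45 were listed), with a median log2 change of 0.08 beside 0.10 for all genes. The lower count was 5 without KDM1A KO replicate 3. Besides Lef1, the higher genes of largest change were Lbh (8.18 ± 0.471 FPKM in KDM1A KO and 2.45 ± 0.289 in Control, log2 change 1.41), the urokinase receptor gene Plaur (3.01 ± 0.744 FPKM in KDM1A KO and 0.892 ± 0.222 FPKM in Control), Tnfrsf19 (1.85 ± 0.207 FPKM in KDM1A KO and 0.707 ± 0.0737 FPKM in Control) and Id2 (2.48 ± 1.16 FPKM in KDM1A KO and 1.08 ± 0.173 FPKM in Control). The call on Id2 held in 1 of the 8 fits that left out a library. Besides Tcf7, the lower ones were T, which encodes brachyury (1.24 ± 0.343 FPKM in KDM1A KO and 3.99 ± 2.60 in Control), Nes, the nestin gene (7.14 ± 0.574 FPKM in KDM1A KO and 14.7 ± 2.44 FPKM in Control), Ephb2 (1.62 ± 0.169 FPKM in KDM1A KO and 3.19 ± 0.625 FPKM in Control) and Ppard (2.70 ± 0.376 FPKM in KDM1A KO and 4.64 ± 0.647 FPKM in Control). T was highest by far in Control replicate 3, at 7.76 FPKM, and its call was lost without KDM1A KO replicate 3 (limma adjusted p = 0.0556).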

How the data were processed

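RNA of 8 libraries of sorted spermatogonia was analysed from a table of FPKM that the authors deposited, with 1 row per transcript entry (45550 entries, 17589 genes). The tools named in the submitters' processing notes are Bowtie, TopHat, Cuffdiff and Cufflinks, with the mm10 build; no versions and no annotation release are stated in what was used here. Per the labels' protocols, libraries were made with a TruSeq Stranded mRNA kit. FPKM are relative to a library total and are not counts, so no count model was used. Entries were summed by gene identifier.

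Genes averaging 0.5 FPKM or more were tested on log2(FPKM + 1), pseudocount 1, with limma 3.58.1 in R 4.3.3 (lmFit, eBayes with trend, group only, two-sided, Benjamini-Hochberg over 15083 genes, call at 0.05). Log2 changes are KDM1A KO minus Control on that scale, which understates low genes, and folds are ratios of mean FPKM. Errors are SD with n = 4 unless SE is named. Marker lists were compared by exact permutation over 70 assignments. Positions come from GENCODE M21 (GRCm38, the build of mm10), which held 17257 of the genes; windows before starts come from RefSeq GRCm38.p6. Depth was inferred in 2653 genes with 1 transcript over 600 bases. Of the 312 to 469 low values used per library, 71.4% to 81.4% lay within 0.1 of a whole fragment. Depth and fragment length were chosen to make this share highest, so the 20% due to chance at a fixed depth is not its chance level. Fragments given for a gene rest on the inferred depth and on no molecular identifiers, so they describe counting precision only.

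Members and lists were chosen with earlier results of these data known. Named genes were Kdm1a, every member, and up to 5 called genes per direction and list by size of change; Rspo4 and Mir5105 were added with their values in view. The limma script was tested on simulated data. Alternatives covered pseudocount, filter, scaling (equal totals, median ratio, quantile, small RNAs removed), limma settings, the block, transcript choice, threshold and each library left out; a fit of protein-coding entries alone was added after seeing the data.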

Additional observations from a re-analysis of the deposited data

Results flagged for a closer look

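In groups of 4, a library was picked out where its distance to the nearest other exceeded 0.829 of the group's range. This held in 6 of the 78 groups of Kdm1a and the 38 Wnt pathway genes, where chance gives about 1 in 20. KDM1A KO replicate 2 was low for Fzd10 (1.28 FPKM, against 2.21 to 2.34 in the other KDM1A KO libraries), Lgr4 (6.07, against 9.23 to 9.87) and Znrf3 (7.96, against 9.69 to 9.88). Control replicate 1 was high for Gsk3b (43.0 FPKM, against 39.4 to 39.8 in the other Control libraries) and Wnt7b (1.11, against 0.758 to 0.810). Control replicate 3 was high for Kdm1a itself (92.0 FPKM, against 48.1 to 54.0). Without KDM1A KO replicate 2, the library with the most entries at 0, Lgr4 was still called.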

How the results depend on the processing

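With equal totals, 10505 genes were called higher and 199 lower, and the calls became 15 higher and 2 lower for the 38 Wnt pathway genes, 35 and 3 for the cofactors, 20 and 0 for the beta-catenin-independent genes and 17 and 2 for the target genes. Signs turned there for 18 of the 38 genes. Those called as deposited or with equal totals were Axin1 (0.55), Ctnnb1 (0.63), Dvl1 (0.16), Dvl2 (0.35), Dvl3 (0.063), Fzd3 (0.38), Gsk3a (0.67), Gsk3b (0.14), Ryk (0.61), Tcf7 (0.19) and Tcf7l2 (0.15, all log2). Those called in neither were Axin2 (0.47), Fzd10 (0.43), Fzd2 (0.19), Fzd9 (0.042), Lrp6 (0.33), Ror2 (0.20) and Znrf3 (0.54). Lrp5 turned with median-ratio scaling, quantile normalization and small RNAs removed, and Fzd5 with quantile normalization, with no call on either there. With median-ratio scaling 2948 genes were lower, the Wnt genes had 4 higher, the cofactors 5 higher and 30 lower, and the beta-catenin-independent genes 13 lower. With quantile normalization these were 2913, 4 and 6 higher, and 12 lower. With small RNAs removed and equal totals, 3 Wnt genes and 5 cofactors were higher. The largest entry per gene gave 4 Wnt genes higher, 2 beta-catenin-independent genes higher and 5 targets lower, and turned Dvl1 (0.26) and Tcf7l2 (0.061). At an adjusted p under 0.01 there were 2408 and 923 calls over all genes, 3 Wnt genes higher, 6 and 8 cofactors, 3 beta-catenin-independent genes lower and 4 targets lower. The cause was not tested beyond the construction of each setting.

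With each library left out, calls ranged from 4 to 8 higher and 12 to 17 lower for the Wnt genes, 6 to 10 and 12 to 23 for the cofactors, 4 to 5 and 3 to 6 for the beta-catenin-independent genes, 5 to 8 and 5 to 11 for the targets, and 3068 to 4371 and 1282 to 2166 over all genes. Of the 7 higher and 15 lower Wnt genes, 4 and 12 were called in all 8 of these fits. Between libraries of the same replicate number, deviations from the group means correlated at 0.22, -0.12, -0.13 and -0.09 for numbers 1 to 4. KDM1A KO replicate 1 alone correlated best with its own number. With 4 libraries per group, such correlations cannot tell whether the libraries were paired. With the replicate block, 5 Wnt genes were higher and 14 lower. Calls were lost there for Dvl3 (limma adjusted p = 0.0769), Fzd6 (0.0706) and Porcn (0.0590). Protein-coding entries alone took the call from Fzd7 (log2 change 0.17, limma adjusted p = 0.376). Pseudocounts of 0.1 and 0.5, the other limma settings and zeros as missing left the direction and call of all 38 genes as they were. Genes under about 1 FPKM rest on fewer fragments, which limits the precision of the ligand values most.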
